A study of Mus musculus with 8 samples.

Results

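The comparison described here sets spermatogonia, the mitotically dividing germ cells of the testis, against the meiotic and haploid germ cells that arise from them in the mouse. All 8 arrays of the series entered it. The 4 arrays titled as type A or type B spermatogonia form one side, and the 4 titled as pachytene spermatocytes or round spermatids form the other, called later cells below. Each cell type has 2 arrays, from total RNA of separate germ cell preparations. Every sample is labelled BL/6-129 for strain, and the labels name no mutation, treatment or age. The sources used here do not give how the cells were purified, whether animals were pooled or how pure the preparations were. Of 14145 genes with enough signal to be tested, 8048 (56.9%) separated the sides completely, so that all 4 arrays of one side lay above all 4 of the other. The later cells were the higher side for 3202 genes (22.6%) and the lower side for 4846 (34.3%).

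Spermatogonia renew themselves and divide by mitosis, and type B spermatogonia are the last such stage before meiosis begins. In pachytene spermatocytes the homologous chromosomes are fully paired, recombination is completed, and the sex chromosomes are condensed and largely silent. Round spermatids are haploid; they build the acrosome, an enzyme-filled vesicle that meets the egg, and the flagellum, and later exchange histones for transition proteins and protamines. Many housekeeping enzymes and cytoskeletal proteins have a second gene that is used mainly in these late germ cells, often a retrogene, a copy made from spliced messenger RNA.

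Of the 5 marker genes of this comparison, Acrbp and Tdrd7 were higher and Col1a1, Ndn and Peg3 lower in later cells, with no overlap. Members were chosen with earlier results of these data known, so this separation does not check the titles. Signals of the 5 are given with their groups. Zbtb16, the transcription factor PLZF of undifferentiated spermatogonia, was lower in later cells too, with signals of 1088, 783, 463 and 389 on the spermatogonial arrays. Signals here and below are the deposited linear intensities, listed as type A replicates 1 and 2, then type B replicates 1 and 2, and on the later side as pachytene replicates 1 and 2, then spermatid replicates 1 and 2. On the later arrays Zbtb16 read 85.2, 76.8, 81.5 and 73.3. Piwil1, a Piwi protein that binds small RNAs of pachytene cells, read 17.7, 36.2, 48.3 and 252 on the spermatogonial arrays against 1791.5, 1621, 309 and 231 on the later arrays. It was highest in pachytene cells, and its spermatid signals overlapped type B replicate 2. Tnp2, a transition protein of spermatids, read 2.9, 2.1, 1.5 and 117 on the spermatogonial arrays against 335, 312.5, 3404 and 4502 on the later arrays. Its highest signals were the pair of spermatid arrays.

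Some features of the arrays touch every result. Type B replicate 2 stood apart from its own group: its correlation with type B replicate 1 over probe sets was 0.886, while replicate pairs of the other cell types reached 0.962 to 0.981. It was most often the spermatogonial array nearest to the later side, in both directions. Among the 3202 genes higher in later cells it was the nearest, and so the highest, for 2115 (66.1%). Among the 4846 lower genes it was the nearest, and so the lowest, for 2320 (47.9%). Markers of somatic testis cells also differed between the sides. The summed signal of 13 peritubular cell genes was 9140.0 to 14919.6 on spermatogonial arrays and 1224 to 2448 on later arrays. That of 19 Sertoli cell genes was 13909 to 20896 against 2290.3 to 10058, with both pachytene arrays (7150.3 and 10058) above both spermatid arrays. Leydig cell genes overlapped between the sides, at 2425 to 3766 against 1195 to 3154. On the later side 2 of the 19 Sertoli genes lay at or under the array median on all 4 arrays. Among defining Sertoli markers, Amh read 6.7, 26.5, 3.9 and 16.7 there, whereas Wt1, named for this role after its values were seen, read 120.5, 142, 36.6 and 51.4 there and 707, 533, 269 and 308 on spermatogonial arrays. For 18S ribosomal RNA, the control probe set of the 3′ end read 2658 to 3450.5 on spermatogonial arrays and 120.1 to 276 on later arrays. In such bulk samples, fewer cells of a type and less RNA per cell cannot be told apart, and the part of these differences in the results below was not tested.

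**Figure D1:**
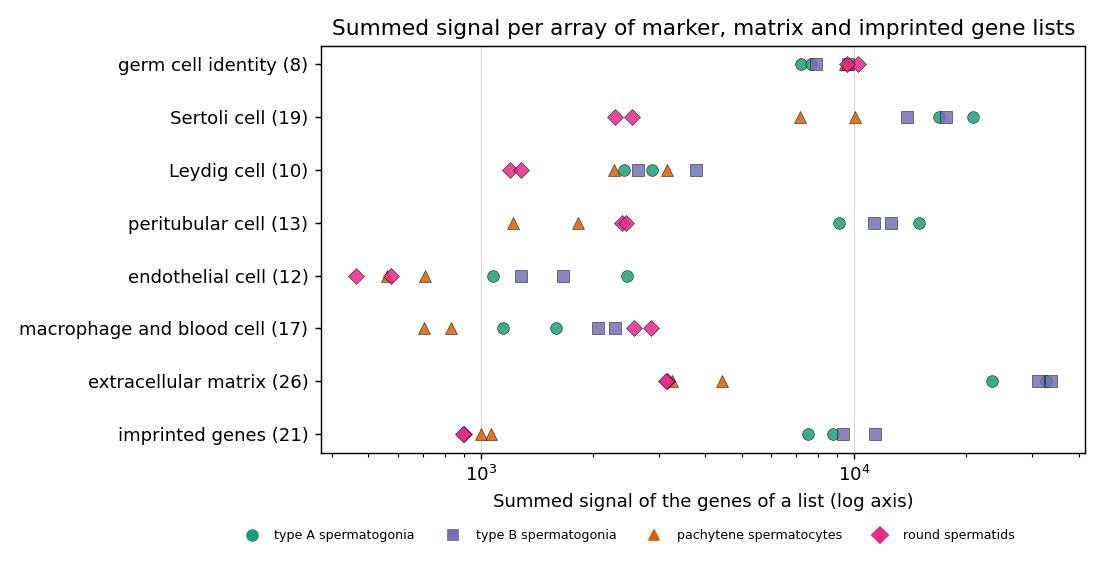
Summed signal of each gene list on each of the 8 arrays, on a log axis, with the number of genes in brackets; circles are type A, squares type B, triangles pachytene and diamonds spermatid arrays. Extracellular matrix and imprinted lists separated the sides without overlap, whereas Leydig, macrophage and germ cell identity sums overlapped.

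Beyond bare separation, the distance between the nearest arrays of the sides was measured on the scale log2(signal + 16), on which all changes are given. This gap was at least 1, that is 2-fold, for 1004 genes higher and 1735 lower in later cells. It was at least 3 for 1 gene higher and 39 lower, and at least 4 for 9 genes, all lower. The limma model, with Benjamini-Hochberg adjustment over all 14145 genes and 4 arrays per side, called 10501 genes (74.2%), 4500 higher (31.8%) and 6001 lower (42.4%), at an adjusted p under 0.05. Of the separated genes, 3163 of the higher and 4813 of the lower ones were also called. Both measures use the same arrays, so this overlap is no independent check. The median change of all genes was -0.17. The p-values measure the spread between preparations.

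The balance of directions depended on how the arrays were scaled. As deposited, 42.9% of the calls were higher in later cells. The share was 50.4% after quantile normalization, 56.9% with each array centred on its 75th percentile and 71.6% after centring on the 32 tested genes of ribosomal proteins. These scalings moved the median of all genes by 0.20, 0.36 and 0.77. Separation under all 4 scalings, a check added after seeing the data, held for 3071 genes higher in later cells (21.7%) and 1910 lower (13.5%). Each alternative scaling moved the median change upwards, so this check, here and below, is lenient for higher genes and strict for lower ones. The 1910 lower genes are as many as with ribosomal centring alone. Without type B replicate 2, 3579 genes were separated as higher and 5320 as lower. Among 168 called genes that could be named by the rule used here, 25 moved by more than 1.5-fold when either type B array was left out, and none did when any 1 of the other 6 arrays was.

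Some of the separated genes also changed within the later side. Of the 3202 separated genes higher in later cells, 765 (23.9%) rose again from pachytene spermatocytes to round spermatids and 266 (8.31%) fell. Of the 4846 lower genes, 354 (7.30%) rose at that step and 743 (15.3%) fell. Over all genes tested, 15.7% were called higher and 19% lower in spermatids than in pachytene cells.

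The widest gaps upwards were found in genes of varied function. Lin7a, a PDZ-domain scaffold of cell junctions, read 0.6, 1.1, 0.6 and 57.5 on the spermatogonial arrays against 573, 623, 905 and 824 on the later arrays. Type B replicate 2 was its highest spermatogonial array, and it still lay far below each later array. Its change was 4.92 ± 0.40 (SE, adjusted p = 1.69e-05). All 3 of its probe sets shared the sign, but only 1 of them separated the sides.

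Accessory subunits of CatSper, the calcium channel of the sperm tail, were next. Catsperg1 read 47.4, 19.1, 31.5 and 69.5 on the spermatogonial arrays against 707, 871, 635 and 597 on the later arrays, a change of 3.70 ± 0.25. Catsperd read 37.9, 35.8, 34.6 and 116 on the spermatogonial arrays against 1416, 1239, 968 and 914 on the later arrays, a change of 4.11 ± 0.27. Neither overlapped, and for both the pachytene arrays were above the spermatid arrays. The nucleoporin gene Nup210l changed by 3.25 ± 0.21, the basic helix-loop-helix factor Atoh8 by 3.84 ± 0.15, and the membrane mucin Muc1 by 3.07 ± 0.14. Arc, best known as an activity-induced gene of neurons, read 42.3, 68.7, 61.7 and 137 on the spermatogonial arrays against 933, 938, 1384 and 1165.5 on the later arrays, and changed by 3.66 ± 0.24. Atoh8 rose further in spermatids, by 1.57 ± 0.22 over pachytene cells (adjusted p = 0.00102, limma), and Ccdc175, 1700116B05Rik and Ccdc7a also had their highest signals there. Ccdc130 and 1700029F12Rik complete the 12 widest gaps in this direction, with changes of 3.06 ± 0.14 and 5.47 ± 0.63. The last of these moved with the type B arrays, to 4.60 without type B replicate 1 and 6.34 without type B replicate 2.

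The widest gaps downwards included a fibrillar collagen gene and the Hedgehog receptor gene. Col1a1, the alpha 1 chain of type I collagen, read 1210.2, 1605.5, 1779.9 and 1756 on the spermatogonial arrays against 2.1, 5.4, 32.9 and 18.9 on the later arrays. No array of the later side came near the spermatogonial range. Its change was -5.80 ± 0.17 (SE, adjusted p = 4.57e-06). Ptch1, the Hedgehog receptor, read 1195.5, 1774, 1336 and 1550.4 on the spermatogonial arrays against 29.1, 41.2, 22 and 19.6 on the later arrays, and changed by -5.08 ± 0.17 (SE, adjusted p = 4.57e-06). Its later signals were low on all 4 arrays. Cyp26b1, an enzyme that degrades retinoic acid, read 836.5, 723, 572 and 753 on the spermatogonial arrays against 16.4, 12.4, 11.8 and 10.4 on the later arrays, and changed by -4.67 ± 0.15. Adenylyl cyclase 7 (Adcy7) changed by -4.97 ± 0.18, the basement membrane collagen gene Col4a4 by -5.07 ± 0.23, the matricellular gene Ccn1 by -4.57 ± 0.19, the secreted glycoprotein gene Fstl1 by -4.77 ± 0.22 and the microfibril gene Mfap4 by -5.30 ± 0.37. Mfap4 was at 2.2 to 3.0 on the later arrays. All 12 genes of widest gap in each direction stayed separated under all 4 scalings. They were chosen for these gaps, and the scalings moved the median of all genes by at most 0.77. The outcome was thus largely given by the choice.

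**Figure D2:**
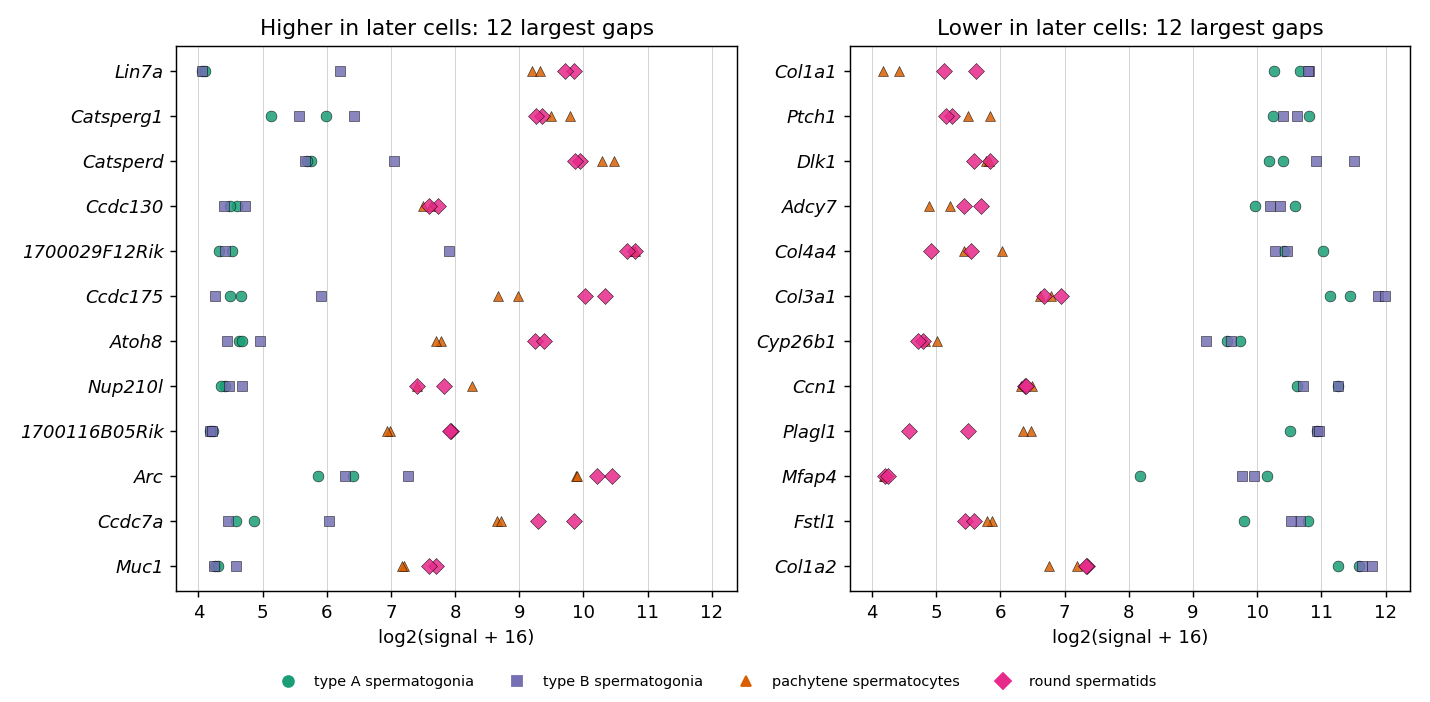
The 12 genes of widest gap in each direction, with one point per array on the scale log2(signal + 16); colours and shapes give the 4 cell types. Points of the sides do not overlap, and the square nearest to the later side in the left panel is most often type B replicate 2.

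Extracellular matrix genes fell as a group. Of 26 members with a probe set, 25 were called lower and 24 were separated, 21 of them under all scalings, with a median change of -2.78 against -0.17 for all genes. Col3a1, the type III collagen chain, read 2222, 2773, 3748 and 4057 on the spermatogonial arrays against 95, 82.3, 107 and 87 on the later arrays, and changed by -4.85 ± 0.15 (SE, adjusted p = 4.57e-06). Col1a2 changed by -4.41 ± 0.16 and Col6a1 by -4.65 ± 0.19. All were high on every spermatogonial array. The exception was Postn, a secreted matrix protein, at -0.11 ± 0.18. It was not called in this scaling and read 0.72 in the other direction when centred on ribosomal genes. Peritubular cell genes, which mark the contractile cells around the tubules, lie beside these: 11 of 13 were called lower, all 11 separated under all scalings, with a median of -2.56. Pdgfra, a growth factor receptor of mesenchymal cells, read 720, 1221, 1436 and 1259.7 on the spermatogonial arrays against 17.2, 10.7, 35.5 and 36.2 on the later arrays, and changed by -4.86 ± 0.19. Tpm1 and Cald1, of the contractile apparatus, changed by -3.90 ± 0.28 and -3.76 ± 0.25. Actg2, a smooth muscle actin, went the other way, at 1.17 ± 0.27, through the spermatid arrays alone (1081 and 1208, against 108 and 112 in pachytene cells). The matrix list's summed signal was 23417 to 33698 on spermatogonial and 3134 to 4436.5 on later arrays.

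Markers of the other somatic types moved less. Among Sertoli cell genes 17 of 19 were called lower and 14 separated, 7 of them under all scalings, with a median of -1.85. Amh, the anti-Müllerian hormone, read 215, 128, 108 and 97.9 on the spermatogonial arrays against 6.7, 26.5, 3.9 and 16.7 on the later arrays, and changed by -2.39 ± 0.27. Vim, the intermediate filament vimentin, changed by -3.03 ± 0.21, and the inhibin subunit Inhbb by -2.56 ± 0.17. Of these 19 genes, 12 were also lower in spermatids than in pachytene cells, with a median step of -1.22. Among Leydig cell genes 7 of 10 were called lower and 5 separated, 1 of them under all scalings (median -1.05). The shares of all genes tested were 42.4% called lower and 34.3% separated as lower. In the Leydig list the steroidogenic enzyme gene Hsd3b1 changed by -2.76 ± 0.30 and the nuclear receptor gene Nr5a1 by -2.02 ± 0.17. Ptgds, a prostaglandin D synthase, was called higher at 0.90 ± 0.30 (adjusted p = 0.0259, limma), with overlap, and the call was lost without type A replicate 2, pachytene replicate 2 or either spermatid array (adjusted p of 0.0535 to 0.0824, limma). For endothelial genes the counts were 7 of 12 lower and 4 separated, 1 under all scalings (median -0.86), a share of separated members near the 34.3% of all genes tested. Cd34, a sialomucin of endothelial and progenitor cells, changed by -2.59 ± 0.25. For macrophage and blood genes they were 10 of 17 lower and 6 separated, 2 under all scalings (median -0.71), also near that 34.3%, with the complement gene C1qa at -2.23 ± 0.36 and lysozyme Lyz1 at -2.51 ± 0.23. Aif1, a macrophage marker in other tissues, rose instead: it read 5.3, 14.7, 14.2 and 56.5 on the spermatogonial arrays against 88.8, 64.8, 1579 and 1819 on the later arrays, a change of 3.52 ± 0.28.

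Imprinted genes, which are expressed from one parental copy, were lower in later cells in each of the 14 members tested. The list has 21 members with a probe set. The other 7 had too little signal to pass the filter, so the 14 are those with spermatogonial signal. All 14 were separated, 11 under all scalings, and their median was -2.20. Without the filter on signal, 16 of the 21 were called lower and none higher. Ndn, which encodes the growth suppressor necdin, read 703, 974, 1192 and 1614 on the spermatogonial arrays against 25.9, 38.3, 43.1 and 40.8 on the later arrays. The sides were far apart on every array. Its change was -4.37 ± 0.18 (SE, adjusted p = 5.05e-06), and 7 of its 8 probe sets had the same sign.

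Peg3, a paternally expressed zinc finger gene, read 775, 719, 552 and 1068 on the spermatogonial arrays against 69.2, 46.6, 44.3 and 45.3 on the later arrays, a change of -3.54 ± 0.22 (SE, adjusted p = 7.74e-06). Its later arrays were alike apart from a slightly higher pachytene replicate 1, and 4 of its 5 probe sets shared the sign. Dlk1, a Delta-like membrane protein, read 1339, 1145, 1912 and 2899.7 on the spermatogonial arrays against 38.9, 40.5, 41.2 and 32 on the later arrays, and changed by -5.0 ± 0.17. Plagl1, a growth-regulating zinc finger factor, read 1437, 1929, 1941 and 1982 on the spermatogonial arrays against 73.4, 65.9, 29 and 7.9 on the later arrays. It changed by -5.11 ± 0.22 and was lower again in spermatids, by -1.38 ± 0.31 relative to pachytene cells (adjusted p = 0.00921, limma). The smallest change was that of Magel2, at -0.48 ± 0.18. Its call was lost when any 1 array other than type A replicate 2 or type B replicate 1 was left out (adjusted p of 0.0695 to 0.12, limma), and it read 0.17 when centred on ribosomal genes. The summed imprinted signal was 7543 to 11399.8 on spermatogonial arrays and 896 to 1068 on later arrays. The matrix and peritubular sums were lower on the same arrays, and the part of such cells in the imprinted result was not tested.

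Genes of spermatogonial identity were lower in later cells, in both the undifferentiated and the differentiating list. Of 18 undifferentiated members with a probe set, 14 were called lower and 11 separated, 8 under all scalings, with a median of -1.88. Zbtb16 changed by -2.76 ± 0.16 (SE, adjusted p = 6.52e-06). Sall4, a zinc finger factor of stem and progenitor cells, read 603.5, 679, 529 and 234.5 on the spermatogonial arrays against 64.5, 70, 70.9 and 48.2 on the later arrays, and changed by -2.64 ± 0.25. Lin28a, an RNA-binding protein that blocks let-7 maturation, read 464, 439, 332 and 172 on the spermatogonial arrays against 24.8, 31.6, 46.9 and 30 on the later arrays, and changed by -2.83 ± 0.22. In both, type B replicate 2 was the lowest spermatogonial array and still lay above every later array. Id4, an inhibitor of basic helix-loop-helix factors used as a stem cell marker, went the other way. It read 197, 314.5, 261 and 373 on the spermatogonial arrays against 1460.1, 1321, 156 and 122 on the later arrays, so the rise lay in the pachytene arrays and the sides overlapped. Its change was 0.66 ± 0.20 (adjusted p = 0.0152, limma), and the adjusted p was 0.0508 without type A replicate 1, 0.0510 without pachytene replicate 1 and 0.0597 without spermatid replicate 1.

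Of 13 differentiating members, 12 were called lower, 10 were separated and 7 stayed so under all scalings, with a median of -2.39. Dmrt1, a transcription factor that holds back meiosis, read 1560.4, 1615, 1822.5 and 1090.5 on the spermatogonial arrays against 102, 134, 294 and 287 on the later arrays, and changed by -2.91 ± 0.19 (SE, adjusted p = 8.15e-06). Crabp1, a retinoic acid binding protein, read 485, 478, 699 and 456 on the spermatogonial arrays against 21.9, 24.2, 101 and 98.8 on the later arrays, and changed by -3.0 ± 0.16. Ccnd2, the D-type cyclin of spermatogonia, read 1081, 1043, 834 and 812 on the spermatogonial arrays against 85.3, 108, 83.9 and 109 on the later arrays, and changed by -3.09 ± 0.14, with all 7 of its probe sets separated. The later levels were not flat in the first pair. Dmrt1 was 1.20 ± 0.27 higher in spermatids than in pachytene cells (adjusted p = 0.00921, limma) and Crabp1 1.57 ± 0.23 higher (adjusted p = 0.00131, limma). In the whole list 8 of 13 genes rose at that step and none fell, beside 15.7% and 19% of all genes. Dmrtb1, a factor related to Dmrt1 that acts at the switch to meiosis, was the 1 member higher in later cells, at 317.5, 254, 374 and 735 on the spermatogonial arrays against 1640, 1912, 2508 and 2607 on the later arrays, a change of 2.41 ± 0.22.

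DNA replication genes were mostly lower in later cells. Of 33 members with a probe set, 20 were called lower and 2 higher. As lower, 16 were separated, 10 under all scalings, and the median was -0.99. Among all genes tested, 42.4% were called lower and 31.8% higher, and 34.3% were separated as lower. Mcm4 and Mcm5, subunits of the replicative helicase, and Cdt1, which loads that helicase onto origins, had the largest changes. Mcm4 read 822, 1244.5, 1587 and 771 on the spermatogonial arrays against 65.3, 48.7, 187 and 177 on the later arrays, and changed by -3.16 ± 0.25 (SE, adjusted p = 1.51e-05). Mcm5 read 1439.5, 1368, 2363.5 and 1626 on the spermatogonial arrays against 155, 167, 441 and 374 on the later arrays, and changed by -2.61 ± 0.16 (SE, adjusted p = 7.63e-06). Cdt1 read 796, 1126, 1157 and 672.5 on the spermatogonial arrays against 86.6, 80.1, 143 and 146 on the later arrays, and changed by -2.88 ± 0.20 (SE, adjusted p = 1.02e-05). The pachytene arrays were the lowest for all of these. Mcm5 was 1.25 ± 0.23 higher in spermatids than in pachytene cells (adjusted p = 0.00372, limma). The members that rose were Rfc2, a subunit of the clamp loader, at 1.34 ± 0.14, and Gins4, a subunit of the GINS complex, at 0.54 ± 0.15. Both were separated under all scalings.

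Promoter sequences are shown for Mcm5 and Cdt1, since E2F factors are the known regulators of replication genes at the start of S phase. The sequences are those of RefSeq on build GRCm38.p6, from 250 bases before to 50 after the start of the gene, 5′ to 3′ on the strand of the gene. Mcm5 lies at chr8:75109259-75109558 on the plus strand, and Cdt1 at chr8:122567765-122568064 on the plus strand. Capitals mark matches to TTTCCCGC, TTTGGCGC or TTTCGCGC, the E2F letters searched, and to TGACGTCA, the cyclic AMP response element (CRE), on either strand.
Mcm5: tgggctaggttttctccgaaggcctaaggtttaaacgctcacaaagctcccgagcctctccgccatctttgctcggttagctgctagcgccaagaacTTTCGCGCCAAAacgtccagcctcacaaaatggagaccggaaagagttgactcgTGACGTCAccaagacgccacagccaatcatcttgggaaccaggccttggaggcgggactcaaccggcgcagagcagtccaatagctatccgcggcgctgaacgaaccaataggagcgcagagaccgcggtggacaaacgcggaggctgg
Cdt1: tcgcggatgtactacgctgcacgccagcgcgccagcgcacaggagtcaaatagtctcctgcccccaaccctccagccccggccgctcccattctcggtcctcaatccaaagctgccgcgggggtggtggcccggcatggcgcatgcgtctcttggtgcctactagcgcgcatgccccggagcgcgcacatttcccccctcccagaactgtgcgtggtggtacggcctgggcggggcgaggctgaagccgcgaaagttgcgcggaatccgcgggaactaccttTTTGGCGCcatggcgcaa
In Mcm5 a pair of overlapping E2F matches begin 153 and 149 bases before the start and a CRE match 99 bases before it. In Cdt1 an E2F match begins 32 bases after the start. E2F letters stood in the promoters of 13 of 25 replication genes found in the table (52.0%), against 3.81% of all tested genes and 1.84% of all 32851 promoters. A gene counted as holding the letters if any of its promoters did. Over all separated genes the E2F share was near that of all tested genes, at 4.27% of the lower and 3.44% of the higher. At a gap of at least 2 it was 3.29% of the lower and 4.42% of the higher. The matches describe letters in these windows and not bound sites.

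The mitotic cell cycle list was divided. Of 26 members, 14 were called lower and 5 higher, with 11 and 5 separated. Of all genes tested, 42.4% were called lower and 31.8% higher, with 34.3% and 22.6% separated. Under all scalings 3 and 4 members of the list remained separated. Its median of -0.49 turned to 0.37 with centring on ribosomal genes. Ccnd2 and Ccnd1, D-type cyclins that drive entry into S phase, and Myc, a growth-promoting transcription factor, fell most, with changes of -3.09 ± 0.14, -2.29 ± 0.20 and -2.87 ± 0.27. The 5 members called higher act in mitosis itself, but not every such member rose: the spindle checkpoint gene Mad2l1 was called lower, at -1.46 ± 0.14, though not separated under all scalings, and Bub1, Bub1b and the kinase gene Aurkb were not called, at -0.21 ± 0.21, -0.02 ± 0.18 and -0.12 ± 0.15. Mad2l1, Bub1 and Aurkb are named here after their values were seen. Aurka, a kinase of the spindle poles, read 273, 342, 316 and 546 on the spermatogonial arrays against 1747, 2106, 1473 and 1519.6 on the later arrays, and changed by 2.20 ± 0.19 (SE, adjusted p = 2.49e-05). Ccnb2, a B-type cyclin, read 304, 414, 418 and 461 on the spermatogonial arrays against 1109, 1155, 1638 and 1577 on the later arrays, and changed by 1.73 ± 0.15. Plk1, a kinase of mitotic entry and exit, changed by 1.15 ± 0.14, the survivin gene Birc5 by 0.95 ± 0.15 and the anaphase activator Cdc20 by 0.46 ± 0.13. Cdc20 was the 1 of these 5 not separated under every scaling. The CHR letters TTTGAA are known from promoters of genes of late division. They stood in promoters of 9 of 21 genes of the list (42.9%), against 14.9% of all tested genes. Over all separated genes the CHR share was 15.7% of the higher and 13.6% of the lower. Counted by single promoter, 17.9% of all promoters held them.

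Regulators of DNA methylation and heterochromatin were lower more often than higher, 12 against 4 of 20 members, with 10 and 3 separated, 2 each under all scalings. Of all genes tested, 42.4% were called lower and 31.8% higher, with 34.3% and 22.6% separated. The list median of -0.76 turned to 0.08 with centring on ribosomal genes. The de novo methyltransferase genes Dnmt3a and Dnmt3b changed by -2.81 ± 0.16 and -2.70 ± 0.24, and Hells, a chromatin remodeller needed for DNA methylation, by -2.14 ± 0.22. Dnmt3a read 494, 393, 312 and 437 on the spermatogonial arrays against 41.7, 45, 48 and 40.3 on the later arrays, with all 5 of its probe sets separated. Dnmt3l, the catalytically inactive cofactor of these enzymes, rose through the spermatid arrays: it read 19.9, 20.2, 14.8 and 9.3 on the spermatogonial arrays against 22, 22.3, 154 and 182.5 on the later arrays, a change of 1.40 ± 0.14. Ezh2, the histone methyltransferase of Polycomb, rose by 0.91 ± 0.15.

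The pachytene list, of meiotic cell cycle genes and genes first strongly expressed in pachytene cells, rose. Of 23 members, 19 were called higher and 2 lower, 19 and 1 separated, 18 higher under all scalings, with a median of 2.74 (3.25 without type B replicate 2). Crisp2, a cysteine-rich secretory protein of the acrosome and tail, read 1.8, 2.2, 0.8 and 1057 on the spermatogonial arrays against 3062, 3326.5, 3658 and 4302 on the later arrays. Its spermatogonial arrays were near 0 except type B replicate 2. Its change was 6.18 ± 1.07 (SE, adjusted p = 0.000848), or 4.68 without type B replicate 1 and 7.68 without type B replicate 2. Pgk2, the phosphoglycerate kinase of sperm glycolysis, read 2.0, 0.5, 2.4 and 249.7 on the spermatogonial arrays against 717, 848, 2750 and 3123 on the later arrays, and changed by 5.46 ± 0.69 (SE, adjusted p = 0.000149), or 4.50 without type B replicate 1 and 6.43 without type B replicate 2. Adam3, a membrane protein needed for sperm to bind the egg coat, read 2.7, 7.9, 8.0 and 332 on the spermatogonial arrays against 1711.5, 1984, 3067 and 2687 on the later arrays, and changed by 5.72 ± 0.70 (SE, adjusted p = 0.000119), or 4.76 without type B replicate 1 and 6.68 without type B replicate 2. In each, type B replicate 2 was raised above the other spermatogonial arrays and below all later arrays. Of the 19 genes called higher, 16 were not called between pachytene cells and spermatids, 1 rose and 2 fell. The steps not called ran from -0.34 to 1.89 and so were not all flat. The highest was that of Pgk2, at 1.89 ± 0.98, an SE that also holds the spread of the type B arrays. Ccnb3, an X-linked B-type cyclin, was separated as lower, at -1.58 ± 0.34.

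Flagellum genes stood highest among the lists by the share separated of all members with a probe set: 29 of 30 such members were tested, and all 29 were called higher and separated under all scalings, with a median of 4.02 (4.46 without type B replicate 2). Acrosome genes were close, with 22 of 24 called higher, 21 separated under all scalings, and a median of 3.50 (3.81 without that array). Members of both lists differed by stage. Among the 29 flagellum genes, 11 were called higher in spermatids than in pachytene cells, by 2.05 to 4.32, 17 were not called between them, with steps of -0.80 to 2.72, and 1, the dynein heavy chain gene Dnah1, fell by 1.32. The steps of called and uncalled flagellum genes overlapped through Smcp, at 2.72; the next highest step not called was that of Tekt3, at 1.01. Among the 22 acrosome genes, 11 rose at that step, by 3.40 to 4.4, and 11 were not called, with steps of -0.34 to 0.98.

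Odf1, a protein of the outer dense fibres of the tail, is of the first kind. It read 4.1, 3.3, 4.0 and 119.9 on the spermatogonial arrays against 345, 206, 3373 and 3743 on the later arrays, so pachytene cells lay between spermatogonia and spermatids. Its change was 4.97 ± 0.52 (SE, adjusted p = 5.22e-05), or 4.28 without type B replicate 1 and 5.66 without type B replicate 2, and its step into spermatids was 3.65 ± 0.73 (adjusted p = 0.00596, limma). Meig1, a protein needed for tail assembly, is of the second kind. It read 50.2, 34.5, 27.9 and 2057 on the spermatogonial arrays against 3503, 4211, 4161.5 and 5115 on the later arrays, nearly as high in pachytene cells as in spermatids. Its change was 5.0 ± 0.99 (SE, adjusted p = 0.00189), or 3.61 without type B replicate 1 and 6.39 without type B replicate 2. Smcp, a cysteine-rich protein of the sperm mitochondrial capsule, read 10.3, 7.0, 0.9 and 256 on the spermatogonial arrays against 736, 570.3, 4242 and 4494 on the later arrays, a change of 5.38 ± 0.72, or 4.38 without type B replicate 1 and 6.39 without type B replicate 2. Its step of 2.72 ± 1.02 missed the threshold (adjusted p = 0.073, limma). In the acrosome list, Dpy19l2, which anchors the acrosome to the nucleus, read 7.2, 8.2, 7.0 and 365 on the spermatogonial arrays against 1756, 1671, 1737 and 1493 on the later arrays, and changed by 5.15 ± 0.73, or 4.14 without type B replicate 1 and 6.17 without type B replicate 2. The SE of every step holds the spread of type B as well, since limma pools it over the 4 cell types.

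**Figure D3:**
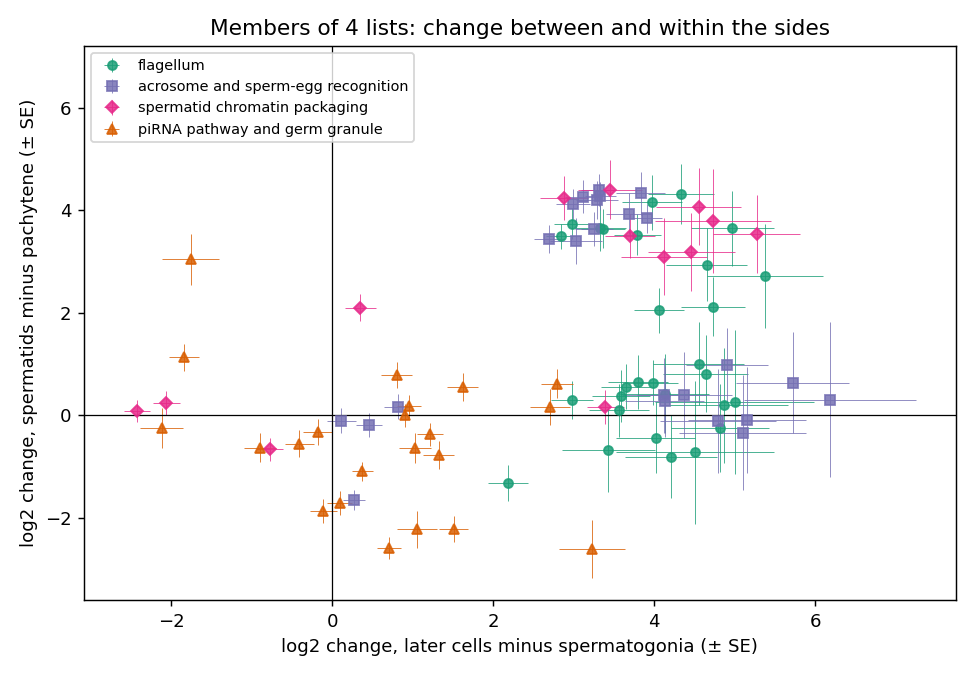
Change between the sides (x axis, log2) against the step from pachytene spermatocytes to round spermatids (y axis, log2), with bars of 1 SE of the fit, for the tested members of 4 lists. Some flagellum and acrosome genes lie high on the y axis, raised again in spermatids, and others near 0; Smcp of the flagellum list, at 2.72, lies among the high ones without being called, and piRNA genes lie mostly at or below 0.

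Promoters of 2 genes raised already in pachytene cells are shown, Acrbp of the acrosome and Tekt1 of the tail, as carriers of the letters of MYB and RFX factors, which are known to act in these cells. Acrbp, which encodes the proacrosin-binding protein, read 46.8, 55.1, 27.6 and 296 on the spermatogonial arrays against 1229, 1425, 1698 and 1777 on the later arrays, and changed by 4.12 ± 0.52 (SE, adjusted p = 0.000142), or 3.41 without type B replicate 1 and 4.83 without type B replicate 2. Tekt1, a tektin of the axonemal microtubules, was chosen for its promoter after the values were seen; it read 42.7, 21.2, 25.9 and 284 on the spermatogonial arrays against 1272, 1421, 2463.5 and 2281 on the later arrays, and changed by 4.64 ± 0.53, or 3.93 without type B replicate 1 and 5.35 without type B replicate 2. Both were separated, and type B replicate 2 was the highest spermatogonial array. The windows are chr6:125049677-125049976 on the plus strand and chr11:72361833-72362132 on the minus strand of GRCm38.p6. Capitals in Acrbp mark a match on either strand to the MYB letters, which were searched as CAACGG, as the form CAACTG, as the form TAACGG and as the form TAACTG, and in Tekt1 GTTGCCAT or GTTGCTAT, the short X-box of RFX factors. CAACTG is also a form of the E-box CANNTG.
Acrbp: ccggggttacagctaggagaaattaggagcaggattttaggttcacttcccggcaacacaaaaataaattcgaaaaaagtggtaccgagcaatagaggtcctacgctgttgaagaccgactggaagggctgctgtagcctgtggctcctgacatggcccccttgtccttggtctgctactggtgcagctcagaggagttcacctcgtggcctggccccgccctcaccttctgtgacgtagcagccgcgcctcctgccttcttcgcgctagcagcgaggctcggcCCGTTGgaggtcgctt
Tekt1: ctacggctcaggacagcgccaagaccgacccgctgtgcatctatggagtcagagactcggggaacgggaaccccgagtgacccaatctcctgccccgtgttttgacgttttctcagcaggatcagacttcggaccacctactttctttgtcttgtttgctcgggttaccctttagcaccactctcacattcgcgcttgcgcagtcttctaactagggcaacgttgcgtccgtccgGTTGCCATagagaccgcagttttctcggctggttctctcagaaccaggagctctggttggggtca
The MYB match of Acrbp begins 34 bases after the start, and the short X-box of Tekt1 begins 15 bases before it. Over all separated genes with a promoter in the table, MYB letters stood in 37.0% of the 2618 higher in later cells and in 25.4% of the 3912 lower, against 29.9% of all tested genes. The share was 52.2% of 113 genes with an upward gap of at least 2, and 26.7% of 243 with such a downward gap. The short X-box stood in 4.43% of the higher and 1.43% of the lower genes, in 7.08% and 0.412% at a gap of at least 2, and in 2.60% of all tested genes. Over all 32851 promoters the shares were 28.3% and 2.24%. The CRE letters TGACGTCA stood in 3.17% of the higher, 2.97% of the lower and 3.33% of all tested genes, and at a gap of at least 2 in 7.08% of the higher (8 of 113) and 3.70% of the lower (9 of 243). These shares are descriptions with no test.

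Chromatin packaging genes of spermatids were high on the spermatid arrays. Of 13 members, 9 were called higher and 3 lower, 5 and 3 separated, with a median of 3.45. The shares of all genes tested were 31.8% and 42.4% called, and 22.6% and 34.3% separated. Tnp2 changed by 5.27 ± 0.54 (SE, adjusted p = 4.62e-05), or 4.54 without type B replicate 1 and 6.01 without type B replicate 2. Hils1, a spermatid linker histone, read 4.8, 2.2, 2.3 and 122 on the spermatogonial arrays against 179, 147, 2771 and 3208.5 on the later arrays, and changed by 4.55 ± 0.53, or 3.82 without type B replicate 1 and 5.28 without type B replicate 2. Tnp1, the other transition protein, read 4.2, 4.3, 1.5 and 247 on the spermatogonial arrays against 182, 338, 3037 and 4397 on the later arrays. Here pachytene replicate 1 lay under type B replicate 2, so the sides overlapped, and the change was 4.73 ± 0.72, or 3.76 without type B replicate 1 and 5.71 without type B replicate 2. The step from pachytene cells to spermatids was called in 9 of the 13 genes, all upwards, with a list median of 3.19. The members that fell were Cdyl, a chromodomain protein, at -2.43 ± 0.16, the replacement histone gene H3f3b at -2.06 ± 0.17 and the ubiquitin ligase gene Rnf8 at -0.77 ± 0.16. Rnf8 was at 0.06 when centred on ribosomal genes, and 1 of 3 probe sets of Cdyl had the other sign.

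Transcription factors of meiotic and haploid cells rose in 15 of 23 members and fell in 5, with 12 and 3 separated, 12 and 0 under all scalings, and a median of 1.60. Over all genes tested, 31.8% were called higher and 42.4% lower, with 22.6% and 34.3% separated. Gtf2a1l, a germ cell form of the general factor TFIIA, read 15.8, 19.6, 17.9 and 394.5 on the spermatogonial arrays against 1760, 1976.5, 2535 and 2141 on the later arrays, and changed by 5.06 ± 0.65 (SE, adjusted p = 0.000159), or 4.16 without type B replicate 1 and 5.96 without type B replicate 2. Spz1, a basic helix-loop-helix zipper protein, read 1.3, 2.2, 2.7 and 90 on the spermatogonial arrays against 224, 169, 3695.5 and 4483 on the later arrays, and changed by 5.04 ± 0.47 (SE, adjusted p = 2.94e-05), or 4.42 without type B replicate 1 and 5.67 without type B replicate 2. Gtf2a1l was near its spermatid level in pachytene cells, and Spz1 was far higher in spermatids. Crem, whose activator form drives many spermatid genes, changed by 4.23 ± 0.49, or 3.58 without type B replicate 1 and 4.87 without type B replicate 2, and 2 of its 4 probe sets had that sign. The X-linked TFIID subunit genes Taf7l and Taf9b fell. Taf7l read 1427, 1601, 2198 and 1074 on the spermatogonial arrays against 88.2, 104, 591 and 605 on the later arrays, and changed by -2.56 ± 0.22, with a step of 2.46 ± 0.31 back up in spermatids (adjusted p = 0.000683, limma). Taf9b changed by -2.56 ± 0.30 and had a step of 1.66 ± 0.42 (adjusted p = 0.0174, limma).

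The X chromosome as a whole had the same direction. Of 477 X-linked genes tested, 310 (65.0%) were separated as lower and 25 (5.24%) as higher, against 33.3% and 23.1% of 13579 autosomal genes, and 188 were lower under all scalings. The median X-linked change was -1.42. From pachytene cells to spermatids 148 X-linked genes (31.0%) rose, against 15.1% of autosomal genes.

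The piRNA pathway, in which Piwi proteins use small RNAs to silence transposons, rose in 14 of 22 members and fell in 4, with 8 and 2 separated and a median of 0.85. The shares of all genes tested were 31.8% called higher and 42.4% lower, with 22.6% and 34.3% separated. Tdrd7, a Tudor domain protein of the germ granules, read 230.1, 245, 248 and 453 on the spermatogonial arrays against 1598, 1716, 2763 and 2356.5 on the later arrays. Every later array was above every spermatogonial one. Its change was 2.79 ± 0.20 (SE, adjusted p = 1.02e-05). Ddx25, an RNA helicase of the chromatoid body, read 304, 423, 396 and 884 on the spermatogonial arrays against 2795, 3068, 3249 and 3283 on the later arrays, and changed by 2.70 ± 0.25. Piwil1 changed by 3.23 ± 0.41 (SE, adjusted p = 0.000141), with overlap, and was lower in spermatids than in pachytene cells by a step of -2.60 ± 0.57 (adjusted p = 0.00914, limma). Of the 14 genes called higher, 5 fell at that step and 1 rose. The members lower in later cells were Piwil4, the Piwi protein of fetal germ cells and spermatogonia, at 94.2, 145, 93.2 and 30.4 on the spermatogonial arrays against 7.9, 9.0, 7.1 and 2.5 on the later arrays and a change of -2.12 ± 0.27, and Tex15, Btbd18 and Mov10l1, at -1.76 ± 0.35, -1.84 ± 0.19 and -0.90 ± 0.20. Tex15 and Mov10l1 overlapped between the sides.

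The promoter of Tdrd7 is shown as the member of this pathway among the marker genes. Of its 3 windows in the table, the one farthest upstream, chr4:45965085-45965384 on the plus strand of GRCm38.p6, holds MYB letters, marked in capitals, beginning 178 and 81 bases before the start. Another of the windows holds them once, beginning 99 bases before its own start.
Tdrd7: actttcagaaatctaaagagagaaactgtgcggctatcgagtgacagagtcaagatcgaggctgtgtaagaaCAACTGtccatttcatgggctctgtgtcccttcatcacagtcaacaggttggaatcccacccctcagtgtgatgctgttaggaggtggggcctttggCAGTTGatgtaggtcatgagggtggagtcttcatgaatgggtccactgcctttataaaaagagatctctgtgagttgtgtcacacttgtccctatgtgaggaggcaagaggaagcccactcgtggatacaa
MYB letters stood in the promoters of 7 of 19 genes of the list found in the table (36.8%), against 29.9% of all tested genes.

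Of 30 genes of translational and RNA control, 15 were called higher and 12 lower, 13 and 10 separated, 12 and 2 under all scalings. Their median was 0.49. Over all genes tested, 31.8% were called higher and 42.4% lower, and 22.6% and 34.3% were separated. The lower shares of the list were near these. Pabpc2, a germ cell poly(A)-binding protein, read 18.3, 22.1, 12.5 and 774 on the spermatogonial arrays against 3088, 3164, 3565 and 3552 on the later arrays, and changed by 5.51 ± 0.85 (SE, adjusted p = 0.000466), or 4.31 without type B replicate 1 and 6.71 without type B replicate 2. Papolb, the poly(A) polymerase of the spermatid cytoplasm, changed by 4.21 ± 0.51, or 3.51 without type B replicate 1 and 4.91 without type B replicate 2. Ybx2, a Y-box protein that stores messenger RNA, changed by 4.02 ± 0.54, or 3.30 without type B replicate 1 and 4.74 without type B replicate 2. Paip2, a repressor of poly(A)-binding protein, read 1160.4, 1057, 1093.5 and 1084 on the spermatogonial arrays against 228, 206.5, 318 and 329.8 on the later arrays, and changed by -1.99 ± 0.13. The RNA-binding protein Celf1 changed by -1.75 ± 0.18, the cytoplasmic polyadenylation factor Cpeb1 by -1.77 ± 0.28 and the translin gene Tsn by -1.20 ± 0.13. Elavl1 changed by -1.62 ± 0.16, with 3 of its 6 probe sets of that sign.

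Meiotic axis and recombination genes did not share one direction. Of 24 members, 7 were called higher and 6 lower, 5 and 4 separated, with a median of 0.28. None of these shares exceeded that of all genes tested, at 31.8% and 42.4% called and 22.6% and 34.3% separated. Spo11, the enzyme that makes the meiotic double-strand breaks, read 95.7, 78.2, 111 and 139 on the spermatogonial arrays against 907, 854, 323 and 397 on the later arrays, and changed by 2.27 ± 0.15 (SE, adjusted p = 8.28e-06). Psmc3ip, a cofactor of strand exchange, read 129, 125, 142.5 and 488 on the spermatogonial arrays against 1103.5, 1495, 1158 and 1393 on the later arrays, and changed by 2.68 ± 0.33. The strand exchange recombinase gene Dmc1 went down: it read 265, 229, 619.7 and 278 on the spermatogonial arrays against 34.9, 26.7, 169.8 and 168 on the later arrays, a change of -1.86 ± 0.24. Its signal was lowest in pachytene cells, with a step of 1.99 ± 0.34 up in spermatids (adjusted p = 0.00267, limma). The X-linked crossover gene Tex11 changed by -2.94 ± 0.22, and Trip13, an ATPase that removes axis proteins, by -1.99 ± 0.19. Spo11 and Psmc3ip, and on the lower side Tex11 and Trip13, were separated under all scalings; Dmc1 was not.

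Pairs of a general gene and its germ cell counterpart often moved in opposite directions. The list holds 36 pairs, and both members were tested in 29. In 14 of the 29 the general member was called lower and the germ cell member higher. Both members were separated in 11 of the pairs called in opposite directions, 9 of these under all scalings. The germ cell members had a median change of 3.16 (29 of 35 tested called higher) and the general members -1.64 (19 of 29 called lower). Over all genes tested, 31.8% were called higher and 42.4% lower, with 22.6% and 34.3% separated.

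In glycolysis and respiration, Pgk1, the X-linked phosphoglycerate kinase, read 674, 883, 785.5 and 750.3 on the spermatogonial arrays against 145, 123, 106 and 113 on the later arrays. This opposes Pgk2, described above, and Pgk1 changed by -2.52 ± 0.14 (SE, adjusted p = 6.66e-06). Pdha1, the X-linked pyruvate dehydrogenase subunit, changed by -2.20 ± 0.18 and its autosomal counterpart Pdha2 by 3.67 ± 0.37. Among subunits of cytochrome c oxidase, Cox6b1 changed by -2.68 ± 0.17 and Cox6b2 by 3.16 ± 0.39, and Cox8a by -1.64 ± 0.13 and Cox8c by 2.77 ± 0.44. Cox8c came to 2.17 without type B replicate 1 and 3.37 without type B replicate 2. For cytochrome c, Cycs changed by -2.19 ± 0.22 and Cyct by 2.30 ± 0.40, the latter with overlap, since its spermatid signals of 378.5 and 550 lay on both sides of type B replicate 2 (465).

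In the cytoskeleton, Cetn2, the X-linked centrin, read 415.5, 432, 438 and 447 on the spermatogonial arrays against 27.8, 37.8, 103.5 and 112 on the later arrays, and changed by -2.54 ± 0.13 (SE, adjusted p = 5.99e-06). Cetn1, its germ cell counterpart, read 4.9, 1.6, 4.0 and 999.9 on the spermatogonial arrays against 2143, 2789, 2688 and 2916 on the later arrays, and changed by 5.65 ± 1.01 (SE, adjusted p = 0.00104), or 4.24 without type B replicate 1 and 7.07 without type B replicate 2. The same held for actin capping protein, with Capza2 at -1.73 ± 0.15 and Capza3 at 3.95 ± 0.39. For A-type cyclins, Ccna2 changed by -1.89 ± 0.16 and Ccna1 by 3.88 ± 0.32, for cohesin Stag2 by -2.60 ± 0.14 and Stag3 by 1.22 ± 0.15, and for the proteasome Psma7 by -2.29 ± 0.20 and Psma8 by 2.54 ± 0.44. Psma8 came to 1.94 without type B replicate 1 and 3.14 without type B replicate 2. It overlapped, at 2381, 2354, 786 and 669 on later arrays against 812 on type B replicate 2. The general members changed least in the pairs Gtf2a1 with Gtf2a1l (-0.43 ± 0.14) and Actb with Actl7b (-0.43 ± 0.14 and 4.0 ± 0.44, the latter 3.42 without type B replicate 1 and 4.59 without type B replicate 2). The Gtf2a1 call was lost without type A replicate 1, pachytene replicate 2 or either spermatid array (adjusted p of 0.0507 to 0.0885, limma), and 1 of its 3 probe sets had that sign. The Actb call was lost without type A replicate 1, pachytene replicate 1 or spermatid replicate 2 (adjusted p of 0.0558 to 0.0737, limma). Both turned to 0.41 and 0.47 with centring on ribosomal genes. The mRNA export factors ran the other way, with Nxf1 at 0.65 ± 0.22 and X-linked Nxf2 at -2.31 ± 0.21. The Nxf1 call was lost without type A replicate 2, type B replicate 2, pachytene replicate 1 or spermatid replicate 1.

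**Figure D4:**
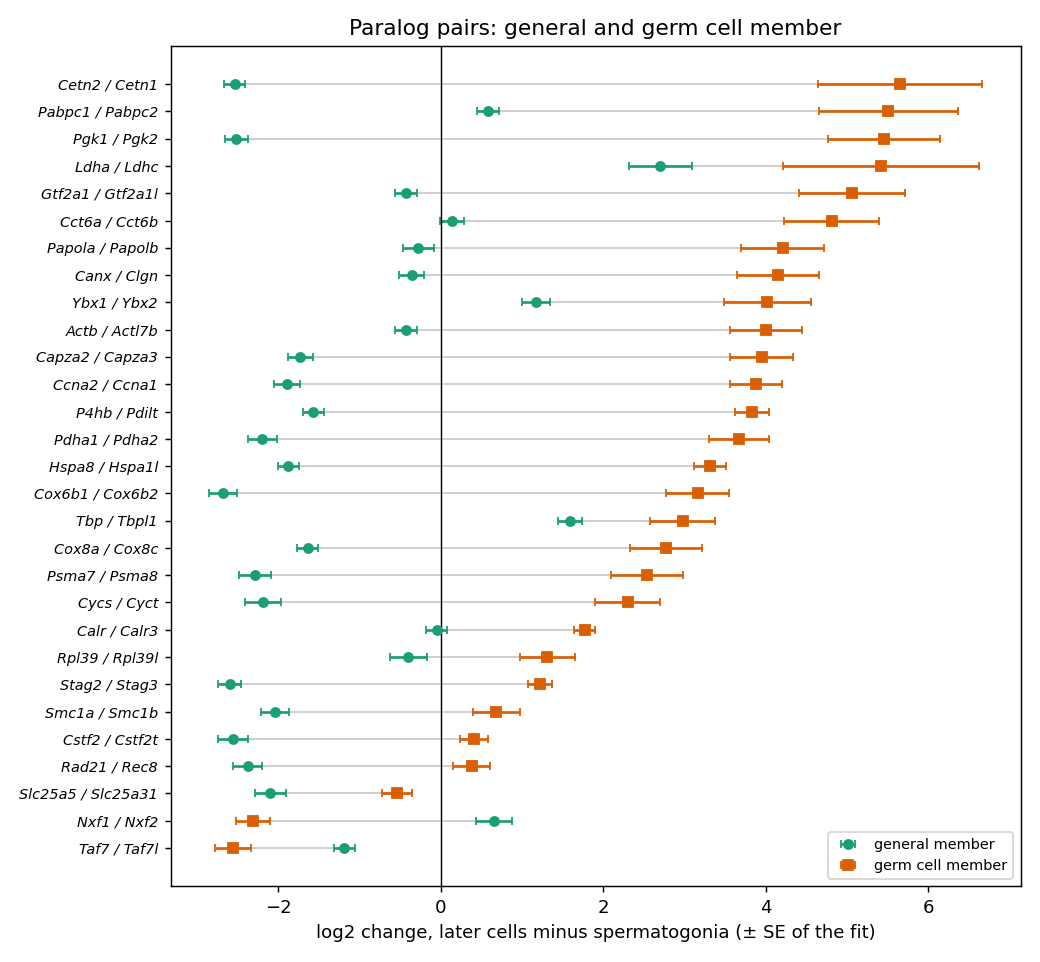
Change between the sides (log2, later minus spermatogonia) of the general member (circle) and the germ cell member (square) of the 29 pairs tested, with bars of 1 SE of the fit. Most squares lie to the right of 0 and most circles to the left; Nxf1 with Nxf2 is the pair called in the opposite order.

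Chaperones went both ways. Of 28 members, 14 were called higher and 6 lower, 15 and 5 separated, with a median of 0.36. Among all genes tested, 31.8% were called higher and 42.4% lower, with 22.6% and 34.3% separated. Cct6b, the germ cell form of a chaperonin subunit, read 15.5, 20, 22.9 and 337 on the spermatogonial arrays against 1624, 1801, 1775 and 1775 on the later arrays, and changed by 4.81 ± 0.58, or 4.01 without type B replicate 1 and 5.60 without type B replicate 2. Dnajb3, an HSP40 co-chaperone, and Clgn, a lectin chaperone of sperm surface proteins, changed by 4.20 ± 0.53 and 4.15 ± 0.51. Dnajb3 came to 3.48 without type B replicate 1 and 4.92 without type B replicate 2, and Clgn to 3.46 without type B replicate 1 and 4.83 without type B replicate 2. Hspa1l, an HSP70 of spermatids, read 10.6, 4.6, 2.3 and 15.5 on the spermatogonial arrays against 37.5, 28.5, 1096.5 and 1151 on the later arrays, and changed by 3.31 ± 0.20. The constitutive Hspa8 read 4311, 4253, 4341.5 and 4476 on the spermatogonial arrays against 1272, 1304, 1129 and 989.7 on the later arrays, and changed by -1.88 ± 0.13 (SE, adjusted p = 8.91e-06). Between pachytene cells and spermatids Hspa1l rose by 4.55 ± 0.28 (adjusted p = 5.52e-05, limma). The mitochondrial chaperonin genes Hspd1 and Hspe1 changed by -2.45 ± 0.17 and -2.85 ± 0.15, and the inducible Hspa1a by -2.47 ± 0.25. For disulfide isomerases, P4hb changed by -1.57 ± 0.13 and Pdilt by 3.83 ± 0.21. General chaperones did not share a direction. Cct6a and Canx, the general counterparts of Cct6b and Clgn, were not called, at 0.14 ± 0.15 and -0.36 ± 0.15, and the chaperonin gene Cct4, the HSP40 gene Dnajb1 and the HSP90 gene Hsp90aa1 were called higher and separated under all scalings, at 0.60 ± 0.13, 1.90 ± 0.29 and 0.44 ± 0.12. These 5 are named after their values were seen.

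General germ cell genes and ribosomal protein genes give the setting. Of 8 germ cell identity genes, 3 were called higher and 3 lower, 2 and 4 separated, none of the lower ones under all scalings, and their summed signal of 7214.5 to 9648 on spermatogonial arrays overlapped that of 9470.2 to 10252 on later arrays. Their median of -0.35 was 0.02 with centring on the 75th percentile and 0.42 with centring on ribosomal genes. Among all genes tested, 31.8% were called higher and 42.4% lower, with 22.6% and 34.3% separated. Dazl, an RNA-binding protein of germ cells, changed by -1.29 ± 0.23. Of 33 cytosolic ribosomal protein genes with a probe set, 23 were called lower and none higher, 24 were separated, 6 of these under all scalings, and the median was -0.89. Rps19 read 2815, 2532, 3136 and 3864 on the spermatogonial arrays against 523.5, 721, 626.5 and 901 on the later arrays, and changed by -2.14 ± 0.18.

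**Figure D5:**
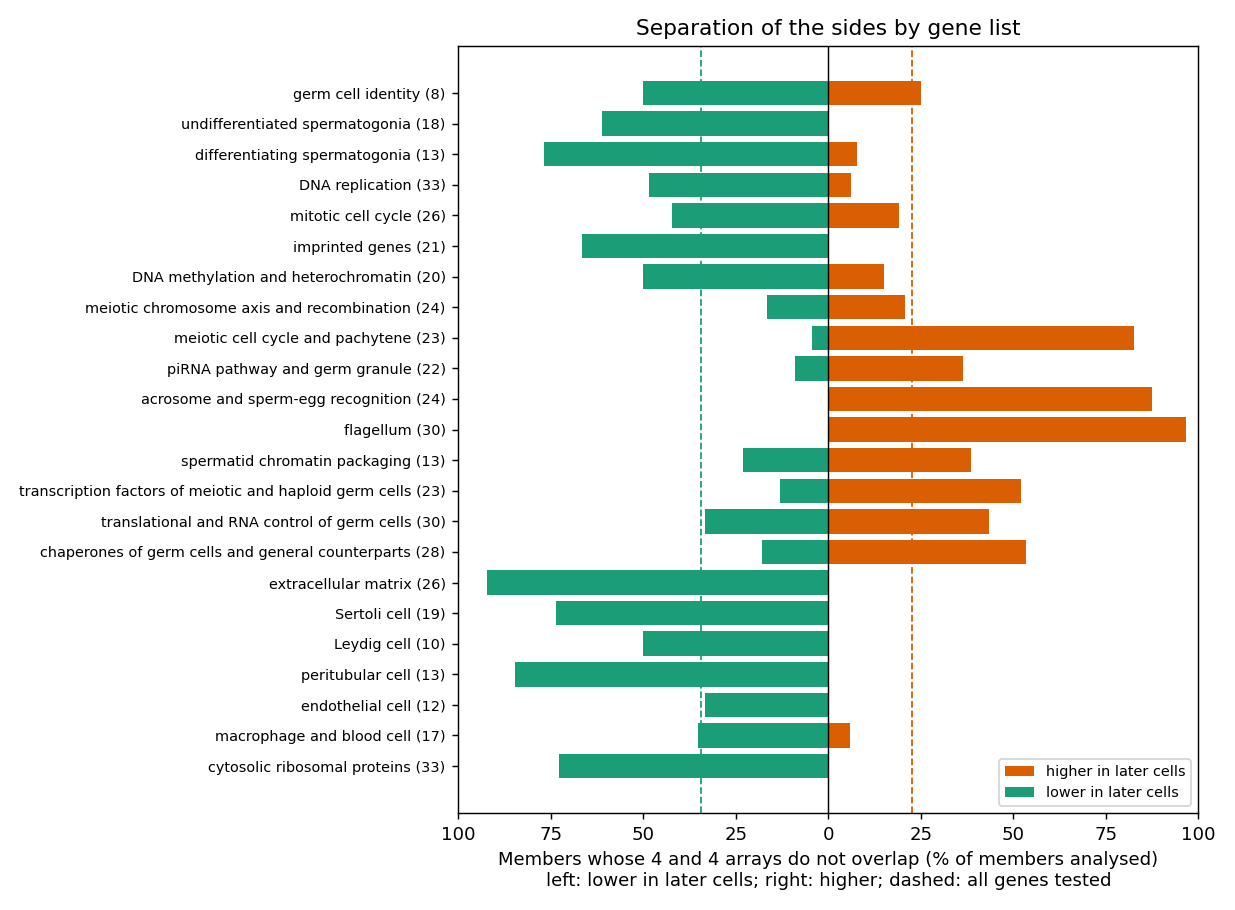
Share of the members of each list (with the number that have a probe set in brackets) whose 4 arrays of one side did not overlap the 4 of the other, lower in later cells to the left and higher to the right; dashed lines give 34.3% and 22.6% for all genes tested. Flagellum, acrosome and pachytene lists lie far right, and extracellular matrix, peritubular and differentiating spermatogonia lists far left.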

How the data were processed

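Probe set values were measured on 8 Mouse 430 2.0 arrays. The authors deposited linear intensity values from MAS5 (per the submitters' processing notes, without a version). After trimming 2% of probe sets at each end the arrays' means were all 124 to 125, so changes are relative to the rest of each array.

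Of 45101 probe sets, 34945 had 1 gene in the platform annotation, 932 several and 9160 none (64 are controls), and 34741 matched the gene table. The probe set with the highest mean of log2(intensity + 16) stood for its gene. Of 18193 genes, 14145 lay above the array median on at least 2 of 8 arrays. A linear model with 1 mean per cell type, limma 3.58.1 in R 4.3.3, contrasted the mean of pachytene and spermatid arrays with the mean of type A and type B arrays. P-values were adjusted by Benjamini-Hochberg over 14145 genes, with 4 residual degrees of freedom. The script was tested on simulated data. Replicate numbers share only a number, so no block was used.

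Named genes were the markers, the 12 widest gaps in each direction, and in each list the 3 largest called changes, members against the majority, the smallest change and pairs called in opposite directions. Members and lists were chosen with earlier results of these data known. Alternatives covered scaling, pseudocount, filter, probe set choice, 1 mean per side, the replicate block, an intensity trend and leaving out each array. Array number limits the precision.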

Additional observations from a re-analysis of the deposited data

Results flagged for a closer look

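Over both sides, 376 sets of 4 arrays, 1 gene on 1 side each, were examined for an array far from the other 3 by Dixon's ratio at 95%, and chance alone marks about 1 in 20 such sets. An array stood out in 39 of them, and in 30 it was type B replicate 2. Its signal, given in brackets, was high for 27 genes. Among tail and mitochondrial genes these were Odf1 (119.9), Meig1 (2057), Smcp (256), Catsperd (116), Cox6b2 (1392), Cox8c (1403) and Cyct (465). Among genes of the acrosome and of sperm glycolysis they were Crisp2 (1057), Adam3 (332), Dpy19l2 (365) and Pgk2 (249.7). Genes of chromatin, transcription, recombination and RNA control were Tnp1 (247), Tnp2 (117), Hils1 (122), Gtf2a1l (394.5), Spz1 (90), Pabpc2 (774), Psmc3ip (488) and Tdrd7 (453). Chaperone, cytoskeletal and proteasome genes were Cct6b (337), Dnajb3 (506), Actl7b (434), Cetn1 (999.9) and Psma8 (812). The rest were Lin7a (57.5), 1700029F12Rik (224) and Gins4 (392). All 27 were called higher in later cells. The same array was low for Mov10l1 (467), Cct2 (2459) and Eif4ebp2 (405).

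Type B replicate 1 was high for Crabp1 (699), Paip2b (843) and Ythdc2 (391). Type A replicate 1 was low for Cd34 (267), Cyp11a1 (50.8) and Plagl1 (1437), and type A replicate 2 was high for Utf1 (232). On the later side, pachytene replicate 1 was high for Peg3 (69.2) and low for Cct6b (1624). What sets these arrays apart was not tested.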

How the results depend on the processing

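Counts of called and of separated genes stayed within 1.5 times the values given under the other pseudocounts, filters, probe set choice, intensity trend and single-array omissions, and under quantile and 75th percentile scaling. Centring on ribosomal protein genes gave 7415 genes called higher and 2944 lower, and 5947 separated as higher and 1910 as lower; separation under all 4 scalings left 1910 lower. Leaving out single arrays gave 4151 to 4545 genes called higher and 5579 to 6176 lower. Where 1 array of a cell type was left out, the other is assumed to vary like the rest. With 1 mean per side the calls were 3429 and 5094. Same-numbered replicates did not deviate together (correlations of deviations -0.178 to 0.173), and a replicate block gave 4505 higher and 6011 lower. Of 188 genes open to naming, 135 kept their direction and side of the threshold throughout. List medians that turned were germ cell identity (0.02 on the 75th percentile, 0.42 on ribosomal genes), mitotic cell cycle (0.37) and DNA methylation (0.08), the last pair on ribosomal genes. Single genes reversed under ribosomal centring were Actb (0.47), Bub1b (0.85), Cct2 (0.87), Cdc25c (0.67), Eif4ebp2 (0.02), Esx1 (0.11), Gtf2a1 (0.41), Hsph1 (0.12), Magel2 (0.17), Mcm7 (0.86), Msh5 (0.72), Msi1 (0.13), Paip2b (0.06), Postn (0.72), Prkra (0.06), Rnf8 (0.06), Rps29 (0.83), Rxrb (0.04), Slc25a31 (0.35), Syce2 (0.27), Tex101 (0.64), Tex12 (0.07), Tsnax (0.68), Utf1 (0.50) and Ythdc2 (0.22). Those under 75th percentile centring were Cct2 (0.39), Mcm7 (0.39) and Rps29 (0.35), under quantile normalization Ehmt2 (-0.04), and with the mean of all probe sets Laptm5 (-0.39) and Tet1 (-0.92). Centring on the 75th percentile or on ribosomal genes multiplies all signals of an array by 1 factor. Because the pseudocount is added afterwards, dim genes shift less than bright ones. Of 4614 separated genes with several probe sets, all probe sets shared the sign in 3351 (72.6%). All of them were separated in only 1663 (36.0%), so most separations do not hold for every probe set of the gene. The pseudocount of 16 compresses changes of genes whose signal is below it on a side.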

Other observations

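Most of the 10 X-linked genes described in this report moved one way within the later side. They are 9 whose changes between the sides are given above and Cstf2, a cleavage stimulation factor subunit of the RNA control list. Cstf2 changed by -2.56 ± 0.18 between the sides. Taf7l, Taf9b, Tex11, Cstf2, Nxf2, Ccnb3 and Cetn2 were all higher in spermatids than in pachytene cells by limma, with steps of 2.46 ± 0.31, 1.66 ± 0.42, 2.32 ± 0.31, 1.49 ± 0.26, 1.58 ± 0.30, 1.43 ± 0.48 and 1.35 ± 0.19. Pgk1, Pdha1 and Stag2, also X-linked, were not called at that step, at -0.25 ± 0.20, 0.44 ± 0.26 and 0.14 ± 0.19. The lists hold other X-linked members. Among them, Akap4 and Esx1 were called higher in spermatids, by 3.52 ± 0.40 and 2.27 ± 0.25. Bgn, Pola1 and Gata1 were not called at that step, at 0.65 ± 0.43, -0.50 ± 0.34 and -0.28 ± 0.24. Syce2, an autosomal gene of the synaptonemal complex, had a like profile: it read 1341, 1247, 2178 and 1825 on the spermatogonial arrays against 504, 463, 2042 and 2395 on the later arrays, lowest in pachytene cells, with a step of 2.16 ± 0.20 (adjusted p = 0.000136, limma), and its sides overlapped.

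Some spermatogonial genes stood higher in spermatids than in pachytene cells. Ccnd1, the cyclin named in the mitotic list, stepped up in spermatids by 0.93 ± 0.28 (adjusted p = 0.0345, limma), as Mcm4 did by 1.45 ± 0.35 (adjusted p = 0.0139, limma) and Hells by 1.11 ± 0.31 (adjusted p = 0.0245, limma). For these 3 genes every spermatid array stayed below every spermatogonial array.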
